A study of Rattus norvegicus with 6 samples.

Results

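The genes described here encode subunits of 2 RNA decay machines, the RNA exosome (Exosc1, Exosc3, Exosc7 and Exosc8) and the Lsm rings (Lsm2, Lsm4, Lsm5, Lsm7 and Lsm8), in neuronal progenitor cells of the rat cerebral cortex. The cells were taken from embryos at day E15.5, grown on fibronectin with the mitogen bFGF at 20 ng/ml, and given 1 µM corticosterone, the main glucocorticoid of rodents, for 48 h. The comparison cells received the solvent dimethyl sulfoxide (vehicle) for the same time. RNA of 3 corticosterone and 3 vehicle samples was hybridised to 1 Affymetrix array each, as 3 couples (1 corticosterone and 1 vehicle array in each), and the labels do not say whether the couples came from separate animals or cultures. The members were all probe sets whose only gene symbol in the platform annotation was 1 of these 9 names. They came to 12 of the 31099 probe sets, all 12 passed the filter on low signals, and the 9 genes stand among 9910 tested. The genes were chosen by their measured corticosterone against vehicle differences on these same arrays. Their values in that contrast are therefore given as a description and with no p-value, and where counts past a threshold are given, they stand beside the share over all genes and support nothing.

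The RNA exosome degrades and trims RNA from the 3′ end. Exosc7 and Exosc8 belong to its ring of subunits that resemble bacterial RNase PH but have lost catalytic activity in mammals. Exosc1 and Exosc3 belong to the cap of RNA-binding subunits on that ring, through which RNA enters, and the cutting is done by associated nucleases such as Dis3 and Exosc10. Lsm proteins are relatives of the Sm proteins of the spliceosome and close into rings that hold the U-rich 3′ end of RNA. The ring with Lsm8 stays in the nucleus on U6 small nuclear RNA, and the ring with Lsm1 in its place works in the cytoplasm, where it binds shortened mRNAs and helps remove their cap. Lsm2, Lsm4, Lsm5 and Lsm7 are shared by both rings.

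The start regions of the members are described by their sequence, with motifs picked after the genes' values were seen. Regions of 250 bases before to 50 bases after the start came from RefSeq (build GRCr8) and were found for all 9 genes, with 2 starts for Lsm2. Between 48.7% and 73.3% of their bases were G or C, against a median of 55.0% over all 21842 regions of that table, and they held 13 to 41 CpG pairs, against a median of 11. The letters GCGCANGCGC, the core recognised by NRF1, a factor known for housekeeping promoters, occurred on either strand in 5 of the 9 genes (Exosc1, Exosc7, Exosc8, Lsm4 and Lsm7) and in 5.66% of all regions. The ETS factor core CCGGAAG occurred in Exosc3, Lsm5 and Lsm8 and in 10.7% of all regions. The E-box CACGTG, recognised by Myc among others, and the TATA box letters TATAAA were in none of the 10 member regions, and in 7.01% and 13.0% of all. The letters AGAACA, the half-site of the glucocorticoid receptor, were in 1 member region, that of Exosc8, and in 18.1% of all. GGGCGG, recognised by Sp1, was in 5 members (41.8% of all regions), CCAAT, recognised by NF-Y, in 2 (38.0%) and AAGATGG, the core of YY1, in 2 (7.29%). A match is only a run of letters and was not tested as a binding site. Shown here are the regions of the 4 members that start head to head with another gene, all of which hold the NRF1 letters, and that of Lsm8, the member with the lowest fold change. They lie at chr1:250694699-250694998, minus strand (Exosc1), chr8:131650813-131651112, plus strand (Exosc7), chr2:141087048-141087347, minus strand (Exosc8), chr7:9507123-9507422, plus strand (Lsm7) and chr4:48271878-48272177, plus strand (Lsm8), and capitals mark NRF1 matches and, in Lsm8, ETS matches.
Exosc1: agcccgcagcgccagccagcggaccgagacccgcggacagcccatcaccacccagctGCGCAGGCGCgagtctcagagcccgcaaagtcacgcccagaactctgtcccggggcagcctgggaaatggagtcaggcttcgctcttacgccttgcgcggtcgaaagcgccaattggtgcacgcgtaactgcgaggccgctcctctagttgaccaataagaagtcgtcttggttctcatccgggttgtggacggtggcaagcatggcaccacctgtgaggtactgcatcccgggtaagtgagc
Exosc7: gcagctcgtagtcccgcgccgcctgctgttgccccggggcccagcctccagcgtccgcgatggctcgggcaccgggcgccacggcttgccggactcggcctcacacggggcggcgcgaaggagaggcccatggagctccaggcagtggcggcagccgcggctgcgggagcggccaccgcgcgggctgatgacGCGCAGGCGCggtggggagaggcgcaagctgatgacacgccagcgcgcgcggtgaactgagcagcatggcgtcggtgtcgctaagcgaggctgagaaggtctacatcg
Exosc8: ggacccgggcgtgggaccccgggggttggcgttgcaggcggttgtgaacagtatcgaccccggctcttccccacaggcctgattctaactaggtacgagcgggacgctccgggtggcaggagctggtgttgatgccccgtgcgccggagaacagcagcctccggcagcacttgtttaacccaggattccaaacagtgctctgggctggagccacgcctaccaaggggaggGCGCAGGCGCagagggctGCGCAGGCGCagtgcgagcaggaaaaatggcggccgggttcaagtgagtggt
Lsm7: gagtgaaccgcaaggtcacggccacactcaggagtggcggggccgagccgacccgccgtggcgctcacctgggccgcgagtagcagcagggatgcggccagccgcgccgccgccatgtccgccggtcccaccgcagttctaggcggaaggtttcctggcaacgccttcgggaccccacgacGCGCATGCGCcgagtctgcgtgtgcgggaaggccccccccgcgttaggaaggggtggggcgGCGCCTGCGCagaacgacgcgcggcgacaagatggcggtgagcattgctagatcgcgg
Lsm8: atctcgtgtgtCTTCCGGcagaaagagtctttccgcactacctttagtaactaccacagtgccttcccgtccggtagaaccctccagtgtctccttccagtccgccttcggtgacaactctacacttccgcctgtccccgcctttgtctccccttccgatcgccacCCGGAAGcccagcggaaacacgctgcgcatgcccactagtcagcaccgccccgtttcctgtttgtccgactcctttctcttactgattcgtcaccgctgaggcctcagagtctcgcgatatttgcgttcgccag

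Signals are MAS5 values on a linear scale, on arrays that the authors had scaled to one mean. That scaling left the medians unequal, at 124, 134 and 125 on the corticosterone arrays of couples 1, 2 and 3, against 108.5, 122 and 119 on their vehicle arrays. For Actb the 3′ control probe set read 1.76, 2.0 and 2.03 times its 5′ counterpart, a measure of RNA quality, with corticosterone and 1.55, 2.11 and 2.12 with vehicle. Progenitor markers differed in level, with mean signals of 8833 with corticosterone and 8699 with vehicle for Sox2 and of 22155 and 22147 for Fabp7. The dimmest was Hes5 (227 and 234). Those that rose were Slc1a3 (18561 and 13306, limma adjusted p = 0.00054) and Nes (3385 and 2827, adjusted p = 0.019). Summed over 5 endothelial markers the signal was 116 to 213 with corticosterone and 91.0 to 161 with vehicle, and over 6 microglial markers 259 to 277 and 201 to 218, where 22.8 is the background of a single probe set. Mean signals of the single endothelial markers ran from 16.4 (Pecam1) to 50.5 with corticosterone and from 3.75 to 44.0 with vehicle, and 1 and 2 of the 5 were under that background. Those of the microglial markers ran from 4.6 (Itgam) to 73.9 with corticosterone and from 4.16 to 71.8 with vehicle, with 2 of 6 under it in each group. Astrocyte markers (6 genes) summed to 9434 to 13907 with corticosterone and 4972 to 7878 with vehicle, and mesenchymal ones (8 genes) to 1718 to 5799 and 890 to 2940. Gja1 gave most of the astrocyte signal, with means of 10939 with corticosterone and 5668 with vehicle. Aqp4 (30.4 and 10.3) and Slc1a2 (22.8 and 15.6) lay near or under the background. Fn1 was the brightest mesenchymal marker (2317 and 833), and Dcn (19.9 and 9.81) lay under the background. Neuronal markers summed to 11666 to 14168 and 13327 to 14734, and oligodendrocyte lineage ones to 16743 to 23057 and 19995 to 24524. Of the markers tested, 2 of 3 astrocyte and 3 of 5 mesenchymal ones rose, as did 2 of 9 progenitor markers and 11.7% of all genes. Of 8 neuronal markers 1 fell, and of 4 oligodendrocyte lineage markers 1 did, as did 7.77% of all genes. The latter was Pdgfra, with 633, 214 and 1000 with corticosterone and 2892, 538 and 2970 with vehicle (log2 fold change −1.64, limma adjusted p = 2.9e-05). The part of these shifts in the values below was not tested, and on bulk RNA fewer cells of a type and less RNA per cell cannot be told apart.

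The 4 exosome members had lower signals with corticosterone in each couple. For the cap subunit Exosc1 the signals were 1178, 1010 and 1214 with corticosterone in couples 1, 2 and 3, against 1579, 1357 and 1483 with vehicle. The groups did not overlap, and the log2 fold change was −0.37 ± 0.08 (SE, n = 3 arrays per group, as for every fold change here), a signal at 76.9% of vehicle. Exosc3, the other cap subunit, had 1062, 591.5 and 623 with corticosterone, against 1380, 764 and 848 with vehicle. Its groups overlapped because both arrays of couple 1 were high, at 1.75 and 1.71 times the mean of the other couples within corticosterone and within vehicle, while the 3 couples differed by −0.37, −0.36 and −0.43 on the log2 scale (fold change −0.38 ± 0.08).

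The ring subunit Exosc7 had 2496, 1677 and 1885 with corticosterone and 3027, 2152 and 2162 with vehicle (log2 fold change −0.28 ± 0.07). It showed the same high couple 1, and the corticosterone array of that couple lay above the vehicle arrays of the others. Exosc8, another ring subunit, had 2361, 1828 and 2086 with corticosterone, against 3271, 2446 and 2389 with vehicle. All corticosterone arrays were below all vehicle arrays, with a fold change of −0.36 ± 0.07 and a smaller difference in couple 3 (−0.19) than in couples 1 and 2 (−0.47 and −0.41).

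Among the Lsm genes, Lsm8, which marks the nuclear ring on U6 RNA, had the lowest fold change of the 9. Its signals were 3196, 2302 and 2918 with corticosterone and 4543, 3064 and 3857 with vehicle. Within each couple the corticosterone array was lower, by 0.50, 0.41 and 0.40 on the log2 scale, although the groups overlapped, and the fold change was −0.44 ± 0.06, or 73.7% of vehicle. Lsm5 came next among the Lsm genes, with 4333, 3470 and 4539 with corticosterone and 5714, 4195 and 6323 with vehicle (−0.38 ± 0.06). Its overlap came from couple 2, whose arrays were the lowest in both groups.

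Lsm2 was the most even of the members in vehicle cells, with 2179, 2021 and 2491 with corticosterone and 2748, 2790 and 2840 with vehicle. The vehicle mean was 2793 ± 46.5 (SD, n = 3) and the corticosterone mean 2230 ± 239, with no overlap and a fold change of −0.33 ± 0.07. Lsm7 had 2022, 1703 and 2241 with corticosterone and 2578, 2098 and 2452 with vehicle (−0.26 ± 0.07), and the groups overlapped. Lsm4, whose protein carries a long glycine- and arginine-rich tail, had the smallest change, with 5171, 4341 and 5122 with corticosterone and 6253, 5262 and 5546 with vehicle (−0.22 ± 0.06). Its groups did not overlap, and the highest corticosterone value was 1.72% below the lowest vehicle value.

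**Figure D1:**
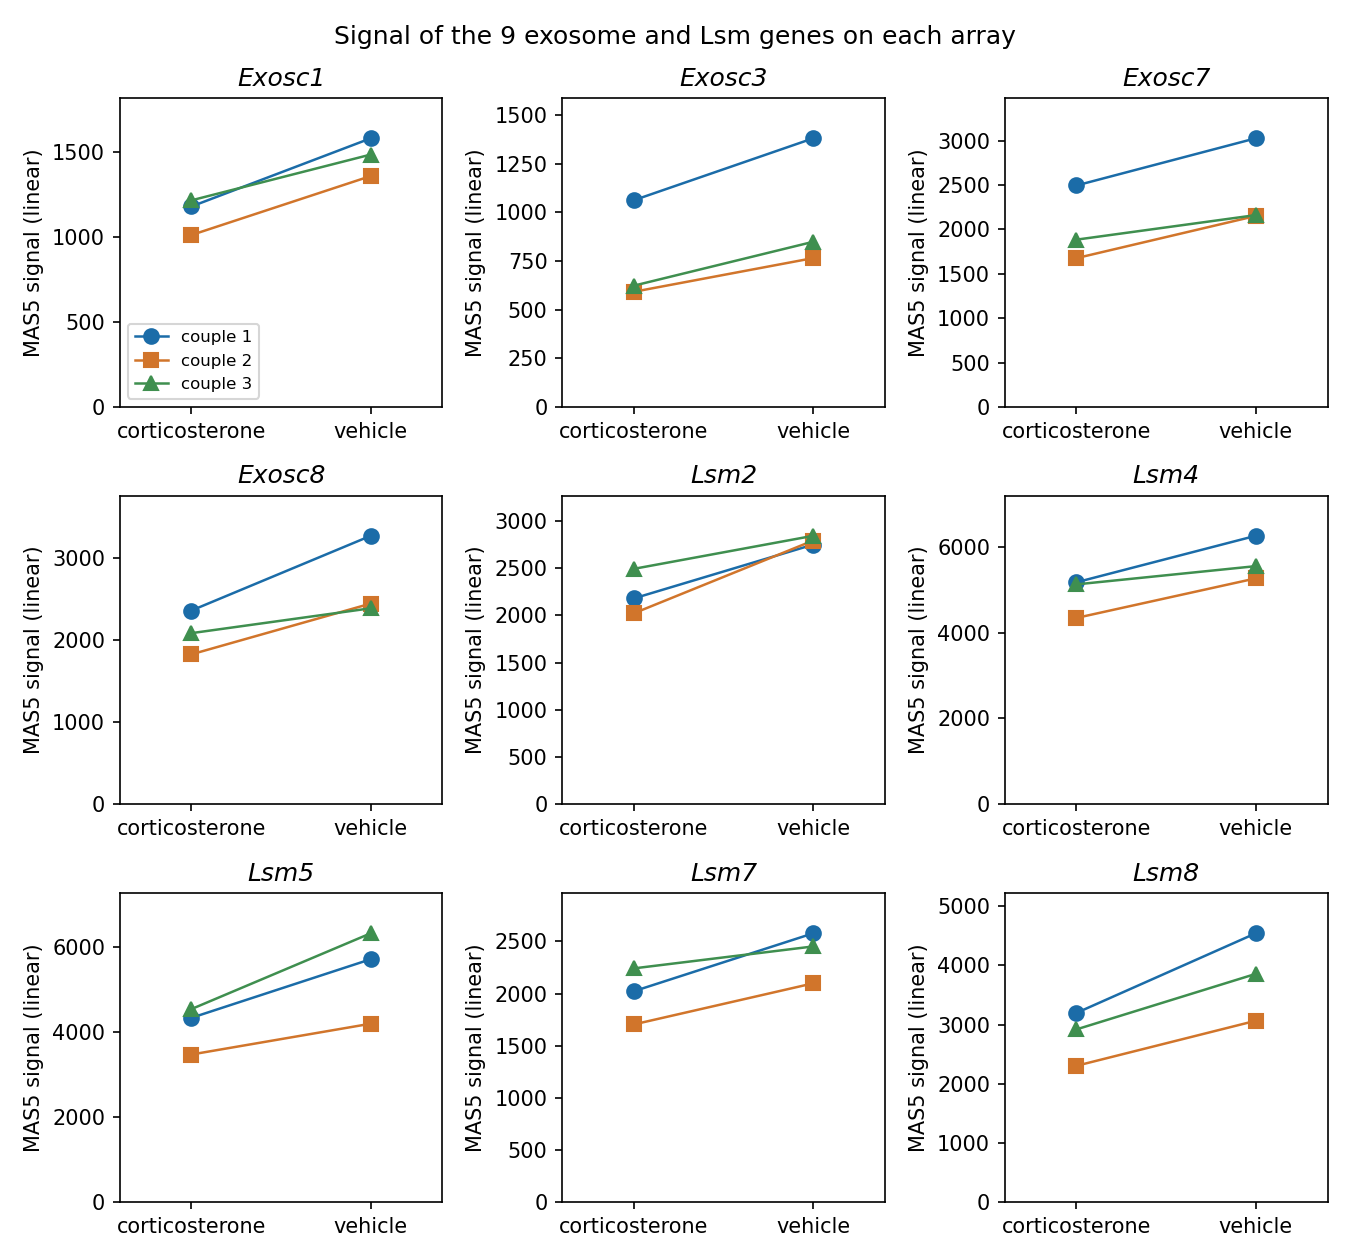
MAS5 signal on a linear scale from 0 (vertical axis) of the brightest probe set of each of the 9 genes on the corticosterone and the vehicle array of each couple, joined by a line per couple. Every line is lower at its corticosterone end, and the arrays of couple 1 lie highest for Exosc3 and Exosc7 in both groups.

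Read by the brightest probe set of a gene, all 9 members were lower with corticosterone in all 3 couples, which also held for 27.2% of the 9910 genes. In 4 of them (Exosc1, Exosc8, Lsm2 and Lsm4) all corticosterone arrays lay below all vehicle arrays, as in 11.4% of genes, and 9 of 9 passed limma's threshold as lower, against 7.77% of genes. The contrast chose the members, so nothing is read from these counts. Fold changes lay between −0.44 and −0.22, with a median of −0.36 over the members and −0.002 over all tested genes. By couple the members' median difference was −0.37, −0.36 and −0.19, and 7 of the 9 genes had their smallest difference in couple 3 (all but Exosc3 and Lsm5). The corresponding medians over all tested genes were 0.008, 0.003 and −0.007. Without the couple as a term of the model 0 members passed in limma (5 at an unadjusted p under 0.05), without couple 2 only 2 did and without the intensity trend of the variance 1. Dropping the couple term or the trend cannot move a fold change in this balanced design, so their unchanged values show nothing. Without couple 2 the fold changes of all 9 were negative. The number without couple 1 was 6 and without couple 3 it was 9. After centring each array on its median, which put the median over all tested probe sets at −0.11 instead of −0.004, the members' median was −0.46.

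Across the 6 arrays the log2 signals of the 9 genes correlated with each other by a median Pearson r of 0.86 over the 36 pairs. The lowest r was that of Exosc3 with Lsm2 (0.35) and the highest that of Exosc3 with Exosc7 (0.99). The arrays share the treatment difference that chose the genes and the differences between couples, so these values describe these arrays only. The high couple 1 was not shared by all members. It was the highest vehicle array for 7 genes, but not for Lsm2 or Lsm5, and the highest corticosterone array for 5.

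Exosc1, Exosc3 and Lsm7 each had a second, dimmer probe set, and these varied more. That of Exosc1 had 370, 325 and 298 with corticosterone and 368, 367 and 347 with vehicle (log2 fold change −0.12 ± 0.11), and in couple 1 the corticosterone array was slightly the higher. That of Exosc3 had 213, 119 and 127 with corticosterone and 380, 127 and 128 with vehicle (−0.28 ± 0.17), so its difference came almost wholly from couple 1, and without that couple it was −0.04. That of Lsm7 had 74.7, 76.2 and 59.3 with corticosterone and 88.9, 104 and 107 with vehicle (−0.39 ± 0.19), with no overlap. Of the 12 probe sets 12 had a negative fold change, 11 were lower in all 3 couples (25.3% of the 18625 tested) and 5 had no overlap between groups (10.1%). In limma 9 passed as lower (6.45%), 0 as higher (9.4%) and the 3 dimmer ones did not pass, where 15.9% of those tested passed in either direction.

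**Figure D2:**
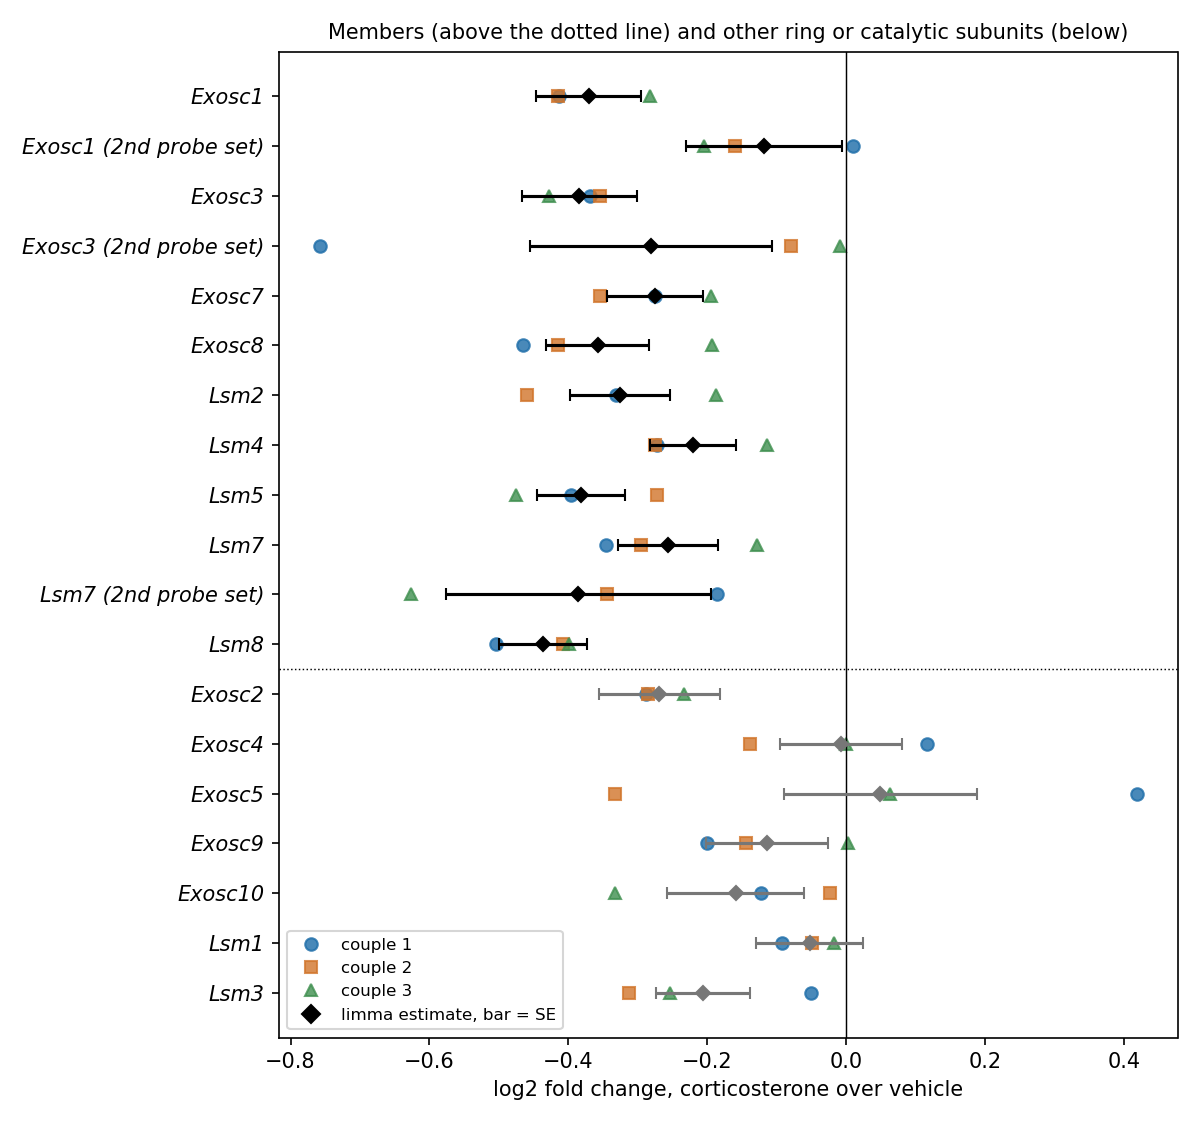
Log2 fold change of corticosterone over vehicle (horizontal axis) for the 12 member probe sets and, below the dotted line, 7 other subunits, with coloured points for the 3 couples and diamonds with SE bars for limma's estimate. The members' brightest probe sets lie left of 0 in every couple, and the points of Exosc4 and Exosc5 lie on both sides of it.

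Of the exosome subunits that are not members, 5 were measured and none passed in limma. Exosc2, the remaining cap subunit, had 634, 595 and 622 with corticosterone and 781, 731 and 737 with vehicle (log2 fold change −0.27, 95% interval −0.46 to −0.08, limma adjusted p = 0.060). Its groups did not overlap, and it passed only after median centring (adjusted p = 0.018). The ring subunits Exosc4, Exosc5 and Exosc9 had fold changes of −0.007 (−0.20 to 0.19), 0.05 (−0.26 to 0.35) and −0.11 (−0.31 to 0.08), with adjusted p-values of 0.97, 0.85 and 0.43. Their corticosterone and vehicle arrays overlapped, and couple 1 alone was 0.42 higher for Exosc5. Exosc10, a nuclease of the nuclear exosome, had a fold change of −0.16 (−0.38 to 0.06, adjusted p = 0.32). The intervals of Exosc5, Exosc9 and Exosc10 reach below −0.22, the smallest change among the members, and that of Exosc4 ends at −0.20, so these values do not show that the subunits were unaffected. The levels of Exosc6 and Dis3 were not analysed here.

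Lsm1, which stands in for Lsm8 in the cytoplasmic ring, had 1215, 1040 and 1012 with corticosterone and 1297, 1077 and 1025 with vehicle, a fold change of −0.05 (95% interval −0.22 to 0.12, limma adjusted p = 0.70), beside −0.44 for Lsm8. The difference between Lsm1 and Lsm8 was not tested, since the contrast chose Lsm8. Lsm3, shared by both rings, had 5058, 3568 and 4395 with corticosterone and 5241, 4439 and 5244 with vehicle (−0.21, −0.35 to −0.06, adjusted p = 0.062). It passed after median centring and without couple 1, with adjusted p-values of 0.0099 and 0.023. Lsm6 was not analysed here, as its probe sets carry more than 1 symbol. Of the Lsm proteins outside the rings, Lsm12 was read by 3 probe sets, all with a negative fold change but not all past the threshold. The brightest had a fold change of −0.18 (adjusted p = 0.083) and the dimmest −0.19 (adjusted p = 0.30). The other fell by 0.37 on the log2 scale (adjusted p = 0.0086). Lsm10 and Naa38, listed here with the Lsm proteins, had fold changes of 0.14 and 0.07 by their brightest probe sets (adjusted p = 0.40 and 0.51). The brighter and the dimmer probe set of Lsm11 had −0.20 and 0.19, and those of Lsm14a −0.02 and −0.05 (adjusted p = 0.26 to 0.85). Lsm14b was too dim to be tested.

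Other genes of the same pathways were read from 6 lists that hold 152 genes, of which 131 were tested. In limma 18 fell, 2 rose and 111 did not pass, which is 13.7% lower and 1.53% higher, against 7.77% lower and 11.7% higher among all genes. The median log2 fold change was −0.12 over the lists and −0.002 over all genes. The values over all genes are not matched to the lists for signal level, and the lists were chosen with earlier results of these data known. With a stricter filter on low signals 1262 probe sets passed as higher and 1143 as lower, against 1751 and 1202 in the fit reported. The lists then held 2 higher and 20 lower of 126 genes. The part of signal level in the contrast with all genes was not tested, so nothing is read from it. None of the 20 calls held without the couple as a term (in limma 13 reached an unadjusted p under 0.05, all lower), and without the intensity trend only that of Paip1 did. Leaving out couple 1 ended 11 of the 20 calls, leaving out couple 2 ended 16 and leaving out couple 3 ended 6. With genes that passed anew, the lists then held 11, 5 and 17 calls. Median centring gave 52 lower and 1 higher. That was 39.7% and 0.763% of the listed genes, where centring also put 18.3% of all genes lower and 8.36% higher. Without the filter on low signals 10 of the 20 calls ended (adjusted p = 0.052 to 0.097).

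Of 20 other exosome subunits and cofactors tested, 2 fell and 18 did not pass (median −0.09). Both that fell encode non-canonical poly(A) polymerases, enzymes that add short tails to nuclear RNA and so hand it to the exosome. Tent4b had 1523, 1671 and 1691 with corticosterone and 1969, 2096 and 2188 with vehicle, with no overlap (log2 fold change −0.35 ± 0.07, limma adjusted p = 0.0053). Tent4a had 1190, 1011 and 1167 with corticosterone and 1610, 1259 and 1267 with vehicle, again with no overlap (−0.28 ± 0.08, adjusted p = 0.041), and its call ended without couple 1 (adjusted p = 0.26) or couple 2 (adjusted p = 0.20) and without the filter (adjusted p = 0.081).

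Of 45 other Lsm and Sm proteins and factors of U6 and Sm particle assembly, 9 fell, 0 rose and 36 did not pass (median −0.15; 2 higher at an unadjusted p under 0.05 in limma). Wdr77, a partner of the methyltransferase that modifies Sm proteins before assembly, had 3163, 2560 and 2974 with corticosterone and 4020, 3564 and 3507 with vehicle (log2 fold change −0.35 ± 0.07, limma adjusted p = 0.0051). Every corticosterone array was below every vehicle array. Snrpb2, a U2 particle protein, and Snrpd1, an Sm core protein, fell by 0.34 and 0.33 on the log2 scale (adjusted p = 0.022 and 0.010). The others that fell, named here after their values were seen, were the Sm core genes Snrpf and Snrpd3, the U1 protein gene Snrpa, the U4/U6 cyclophilin Ppih, the U6 recycling factor Sart3, which binds the Lsm ring, and the methyltransferase Prmt5, with fold changes between −0.31 and −0.24. Leaving out couples ended some of these calls. They were Snrpa, Snrpb2, Snrpd1, Sart3 and Prmt5 without couple 1 (adjusted p = 0.058 to 0.18), Snrpa, Snrpb2, Sart3, Ppih, Prmt5 and Wdr77 without couple 2 (0.061 to 0.28) and Snrpd1 and Snrpd3 without couple 3 (0.055 to 0.14). Those of Snrpb2, Snrpd3, Sart3 and Prmt5 also ended without the filter (0.067 to 0.083), and that of Prmt5 with quantile normalization (0.074).

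Of 13 decapping genes 3 fell, 1 rose and 9 did not pass (median −0.11). Patl1, the scaffold that joins the cytoplasmic Lsm ring to decapping, had 396, 491 and 576.5 with corticosterone and 501, 630 and 723 with vehicle (log2 fold change −0.33 ± 0.09, limma adjusted p = 0.036), lower in each couple although the groups overlapped. Edc4, a scaffold of the decapping enzyme, fell by 0.36 (adjusted p = 0.026) and Eif4enif1, which binds the cap-binding factor Eif4e, by 0.34 (adjusted p = 0.039). Pnrc1 rose by 0.32 (adjusted p = 0.013), with 1522, 2546 and 2260 with corticosterone and 1341, 1904 and 1740 with vehicle, and did not pass after median centring (adjusted p = 0.091). None of the 4 calls held without couple 2 (adjusted p = 0.073 to 0.18). Without couple 1 those of Edc4, Patl1 and Eif4enif1 ended (0.12 to 0.28), without couple 3 those of Patl1 and Pnrc1 (0.058 to 0.088), and without the filter those of Edc4, Patl1 and Eif4enif1 (0.064 to 0.097).

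Of 22 deadenylation genes 2 fell, 1 rose and 19 did not pass (median −0.09). Tob1, an antiproliferative protein that recruits the CCR4-NOT deadenylase, had 1553, 1451 and 874 with corticosterone and 1118, 841 and 677 with vehicle (log2 fold change 0.53 ± 0.09, limma adjusted p = 0.0031), higher in each couple, with overlap between groups. Paip1, a poly(A)-binding protein partner, fell by 0.42 (adjusted p = 0.022) and the CCR4-NOT subunit Cnot9 by 0.23 (adjusted p = 0.044). Both calls ended when any couple was left out (adjusted p = 0.052 to 0.21) and without the filter (0.052 to 0.078), that of Tob1 ended without couple 2 (adjusted p = 0.051), and Cnot9 did not pass with quantile normalization (adjusted p = 0.083). Of 13 genes of nonsense-mediated decay only Rbm8a, of the exon junction complex, passed, and it fell by 0.27 (adjusted p = 0.011). Of 18 regulators of mRNA stability only Celf1 passed and fell by 0.29 (adjusted p = 0.010), and neither call held without couple 2 (adjusted p = 0.12 and 0.13).

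**Figure D3:**
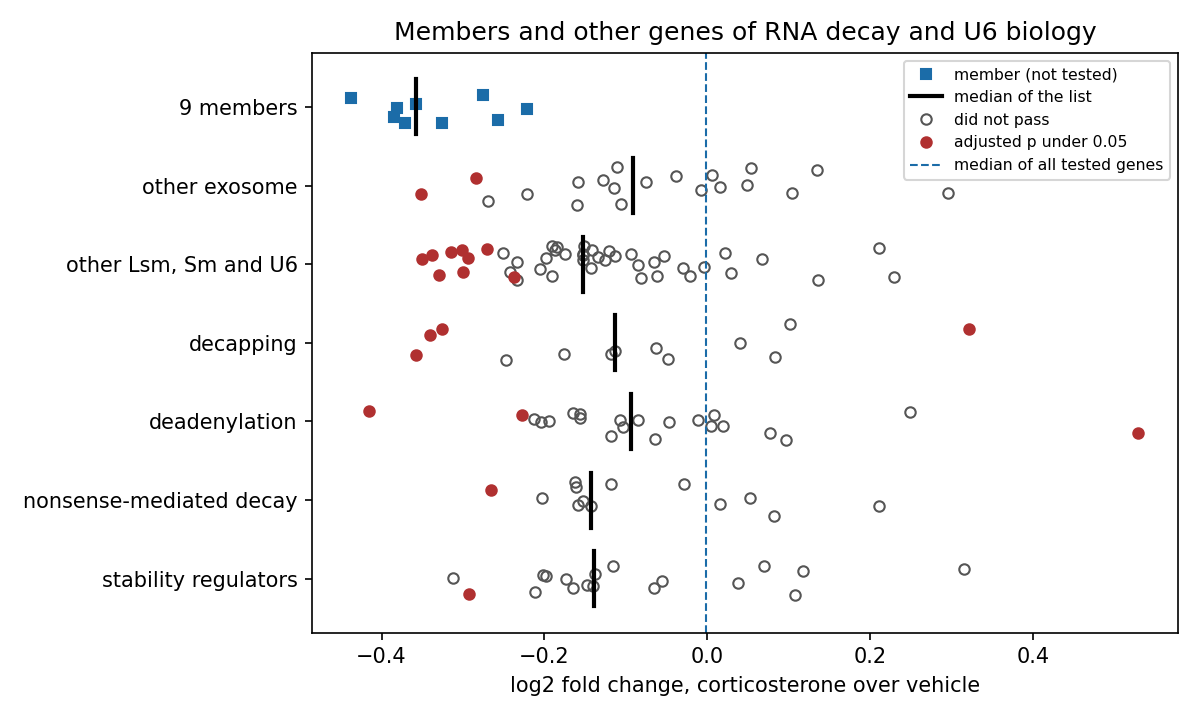
Log2 fold change of corticosterone over vehicle (horizontal axis) of the 9 members (squares) and of the tested genes of 6 lists (circles, filled where the limma adjusted p was under 0.05), with black bars for medians and a dashed line for the median of all tested genes. The list medians lie between −0.15 and −0.09, right of the members' median of −0.36, and the vertical spread within a row has no meaning. This contrast chose the members, so nothing is read from the place of their median.

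Exosc1, Exosc7, Exosc8 and Lsm7 start within 1000 bases of a protein-coding gene that runs the other way, an arrangement of 7.23% of the 18999 protein-coding genes with a listed start. The starts were 194 bases apart for Exosc1 and Zdhhc16, 65 for Exosc7 and Zdhhc3, 567 for Exosc8 and Alg5 and 95 for Lsm7 and Sppl2b. The NRF1 letters shown in capitals above occurred in 13.2% of the regions of genes in such pairs and in 5.04% of the others. The neighbours, which had no part in choosing the members, did not pass in limma. Zdhhc16, a palmitoyltransferase, had 1072, 1211 and 1150 with corticosterone and 1112, 1154 and 1009 with vehicle (log2 fold change 0.07, 95% interval −0.11 to 0.24, limma adjusted p = 0.64). Zdhhc3, another palmitoyltransferase, had 1222, 1311 and 1255 with corticosterone and 1132, 1381 and 1253 with vehicle (0.01, −0.16 to 0.18, adjusted p = 0.94). Alg5, an enzyme of N-glycan precursor synthesis, had 2030, 1956 and 1679 with corticosterone and 1745, 1856 and 1746 with vehicle (0.08, −0.09 to 0.24, adjusted p = 0.54). The groups of all 4 neighbours overlapped. Sppl2b, an intramembrane protease, had 382, 416 and 543 with corticosterone and 413, 481 and 558 with vehicle (−0.11, −0.33 to 0.11, adjusted p = 0.50). The intervals of Zdhhc16, Zdhhc3 and Alg5 end above the estimates of −0.37, −0.28 and −0.36 of their paired members, and that of Sppl2b spans the −0.26 of Lsm7. The differences within the pairs were not tested, since the contrast chose the members.

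**Figure D4:**
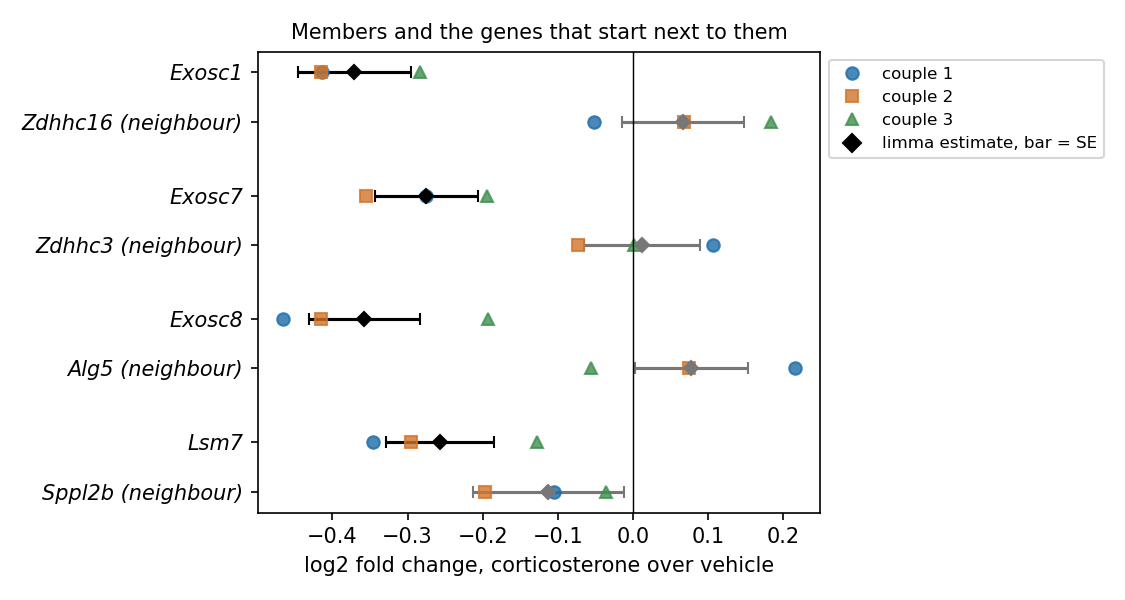
Log2 fold change of corticosterone over vehicle (horizontal axis) of the 4 members that start head to head with another gene and of that neighbour below each, with points for the 3 couples and diamonds with SE bars for limma's estimate. The members' points all lie left of 0, and those of Zdhhc16, Zdhhc3 and Alg5 lie on both sides of it.

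Outside the members, the genes whose log2 signals over the 6 arrays were most like the members' mean profile were Krr1, Mios, Prr36, Inip, Uchl3, Emd, Dph5 and Scaf4, with Pearson r from 0.993 to 0.998. The likeness takes in the treatment difference and the differences between couples, and with 6 arrays and 9910 genes some high values are unavoidable. Prr36, Inip and Scaf4 did not pass in limma (adjusted p = 0.096, 0.074 and 0.13), and the groups of Scaf4 overlapped. The others passed as lower, which supports nothing, since likeness to members that the contrast chose picked them. Krr1 had 1358, 1012 and 1291 with corticosterone and 1847, 1409 and 1544 with vehicle. Uchl3 had 2921, 2027 and 2597 with corticosterone and 4458, 3024 and 3683 with vehicle. In both genes couple 1 was the highest and couple 2 the lowest in each group.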

How the data were processed

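MAS5 signal intensity per probe set was deposited for 6 arrays, 1 per sample, and the authors made it with MAS5, per the submitters' processing notes; its version and detection calls were not in the sources used. Per the labels' protocols, cDNA was primed with oligo(dT) from 3 µg of total RNA, which weights signals towards the 3′ end. The values show a mean of 500.2 on each array without its extreme probe sets, so each array had been scaled to it. Such scaling fixes the mean and not the median.

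Of 31099 probe sets 57 controls were left out. The platform annotation gave 1 symbol to 20826 of the rest, several to 436 and none to 9780, and no gene was named from the last 2 kinds. Entrez identifiers of 20764 were found in the NCBI table of GRCr8, and 0 symbols changed. Signals were taken as log2(signal + 28.6), the pseudocount being the 25th percentile of all values, so fold changes of dim genes are understated. The dimmest 40% were left out (mean signal under about 63.6), which left 18625. These were fitted with limma 3.58.1 in R 4.3.3 with treatment and couple as terms and an intensity trend. Tests are two-sided, with Benjamini-Hochberg adjustment over all 18625 and a threshold of 0.05. The fit was also run on simulated data with changes larger than those of the members, so that run does not cover changes of their size. A gene was read from its brightest probe set. As background served 22.8, under which 95% of the signals of 27 bacterial controls fell.

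The series design text says that the samples form couples, and the titles number them. Within couples the arrays deviated from their group means together (r = 0.57, 0.52 and 0.35), and between couples r was −0.48 to 0.003, partly by arithmetic. The p-values and SEs rest on the spread between these 3 couples, which may be technical, after limma drew it towards the trend over all tested probe sets. They cover no spread beyond these couples, and the number of arrays limits the precision.

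The members and lists were chosen with earlier results of these data known. Genes named beside the members are the other ring, cap and catalytic subunits, those past the threshold in a list (the 3 largest where over 6 passed) and the 8 most alike by Pearson r. Motifs, head-to-head pairs and the Lsm proteins outside the rings were chosen for description after the values were seen. Alternatives were no couple term, quantile normalization, median centring, pseudocounts of 1 and 100, no filter, a 60% filter, no trend, each couple left out and every probe set counted.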

Additional observations from a re-analysis of the deposited data

How the results depend on the processing

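The 9 members' fold changes were negative under all 11 alternatives, with a median between −0.46 (median centring, beyond the spread of −0.37, −0.36 and −0.19 between couples) and −0.32. Dropping the couple term or the trend, or changing the filter, leaves a probe set's fold change as it was, so those alternatives could not alter it. The contrast chose the members, so nothing is read from the shared sign. Counts of calls were less stable. In the fit without the couple term (no replicate block) 417 probe sets passed in limma, and 0 members and 0 genes of each list. At an unadjusted p under 0.05 these then held 5 members and, in the order exosome, Lsm and Sm, decapping, deadenylation, nonsense-mediated decay and stability, 2, 6, 1, 2, 0 and 2 genes, 13 in all. Without the intensity trend 1262 probe sets, 1 member and 1 listed gene passed (in that order of lists 0, 0, 0, 1, 0 and 0, with 3, 12, 5, 3, 1 and 1 below 0.05 unadjusted). With no filter 1862 probe sets and 10 listed genes passed, with 1 of the exosome, 5 of the Lsm and Sm, 1 of the decapping and 1 of the deadenylation list. Median centring gave 4092 probe sets, against 2953 in the fit reported, and 53 listed genes, with 4 of the exosome, 23 of the Lsm and Sm, 7 of the deadenylation, 5 of the nonsense-mediated decay and 9 of the stability list. The stricter filter gave 2 genes of nonsense-mediated decay, and counting every probe set gave 2 for the stability list. With 1 couple left out 1192 to 2807 probe sets, 2 to 9 members and 5 to 17 listed genes passed, in the order of lists 1 to 2, 4 to 9, 0 to 2, 0 to 1, 0 to 1 and 0 to 2. The counts of 0 there came without couple 2, with 4, 4, 2 and 5 genes at an unadjusted p under 0.05. The cause of the drop without couple 2 was not tested; fewer arrays leave 1 residual degree of freedom. Of the calls after centring 1246 were higher and 2846 lower, against 1751 higher and 1202 lower before it. Of the single genes followed here, the fold changes that turned sign were those of Exosc5 (−0.06 after centring, −0.14 without couple 1) and Exosc4 (0.06 without couple 2), none of them past the threshold. The dimmer Lsm7 probe set, at 59.3 to 107, lies closer to the background of 22.8 than its brighter one.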
